A study of Mus musculus with 15 samples.

Results

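The G1/S and DNA replication genes described here are 38 genes for origin licensing, helicase activation, the replication fork, nucleotide supply, the E2F and cyclin E switch, chromatin assembly and the S-phase checkpoint. They were chosen by name, as the rows of the count table whose gene name is on this list, and are 38 of the 21702 genes in the table. Of them, 35 passed the filter on low counts and were tested among 12172 genes, and Cdc6, Dtl and Orc1 did not pass. RNA was sequenced from whole livers of 15 mice in 5 groups of 3, to ask how pregnancy changes the maternal liver when hepatocytes can or cannot proceed through the cell cycle. All were wild-type (WT) females of 8 to 14 weeks, virgin at the start, of the strain C57BL/6 by the labels and C57BL/6N by the study's methods, and each had an adeno-associated virus of serotype 8 (AAV8) by tail vein, which in the mated mice was at least 1 week before mating. AAV8-null carries the liver-specific TBG promoter with no gene behind it, and AAV8-p21 carries the mouse p21 cDNA behind the same promoter, which acts in hepatocytes and not in the other cells of the liver. The groups were non-pregnant (NP) AAV8-null, AAV8-null at 8 days post-coitum (8 dpc), AAV8-null at 16 dpc, AAV8-p21 at 8 dpc and AAV8-p21 at 16 dpc. The labels name no NP AAV8-p21 group, so a difference between AAV8-p21 livers and NP AAV8-null livers holds pregnancy and the virus together. The 3 AAV8-p21 livers at 16 dpc are called a, b and c, since their numbers in the table and in the labels do not all match.

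Before S phase, ORC, CDC6 and CDT1 load the MCM2 to MCM7 helicase ring on replication origins, and CDC45 and the GINS complex switch the ring on. Polymerase alpha and its primase then start each strand, and the clamp loader RFC places the PCNA ring that holds the other polymerases on DNA. Most of these genes are targets of E2F transcription factors, which the retinoblastoma proteins hold in check until cyclin-dependent kinases act, and p21 is an inhibitor of those kinases. Most hepatocytes of an adult liver rest outside the cycle, so these transcripts are scarce there.

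Total counts per liver lay between 12280709 and 17615185. Levels are given as CPM, which are counts scaled to library size with edgeR's TMM factors, and these factors lay between 0.682 and 0.839 in the livers at 16 dpc and between 1.10 and 1.25 in all others. The replication genes tested had a mean of 5.67 (Clspn) to 273.3 (Mcm10) counts per liver, and 9 of them had a mean under 20 counts. Cdkn1a, the gene of p21, ranged from 3.29 to 33.7 CPM in NP livers. In AAV8-null livers it ranged from 16.5 to 33.4 CPM at 8 dpc and from 59.8 to 127.4 CPM at 16 dpc, and in AAV8-p21 livers from 347 to 648 CPM and from 815 to 1664 CPM, so the viruses did not overlap at either stage. Its count cannot separate the mouse gene from the cDNA of the virus. The 6 hepatocyte markers summed to between 80530 and 439576 CPM over the livers. Alb made up most of this sum in every liver, at 65701 to 408470 CPM, so the sum mainly follows Alb. Of 8 erythroid precursor markers, 6 stayed under 1 CPM in all livers.

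The sequences just before the start of 4 of the genes called below are shown as a description. Mcm5, Mcm6 and Chaf1a were called lower at 16 dpc than at 8 dpc in AAV8-null livers, and Mcm10 was called lower at 16 dpc than in NP livers, where a call means an adjusted p under 0.05 in edgeR's quasi-likelihood test and a log2 fold change over 1 in size. Each is the 160 bases before the gene's start on its own strand, from RefSeq on GRCm38.p6, and lies at chr8:75109349-75109508 (plus strand) for Mcm5, at chr1:128359706-128359865 (minus strand) for Mcm6, at chr17:56040256-56040415 (plus strand) for Chaf1a and at chr2:5012792-5012951 (minus strand) for Mcm10. Capitals mark matches to the E2F motif searched, which was TTTCCCGC, TTTCGCGC, TTTGCCGC or TTTGGCGC on either strand.
Mcm5: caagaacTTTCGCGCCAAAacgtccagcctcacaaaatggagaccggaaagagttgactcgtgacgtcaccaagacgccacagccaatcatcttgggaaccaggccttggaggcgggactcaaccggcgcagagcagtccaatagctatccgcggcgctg
Mcm6: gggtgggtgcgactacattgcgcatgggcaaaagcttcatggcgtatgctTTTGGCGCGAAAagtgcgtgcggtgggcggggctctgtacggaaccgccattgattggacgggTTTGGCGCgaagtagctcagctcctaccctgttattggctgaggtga
Chaf1a: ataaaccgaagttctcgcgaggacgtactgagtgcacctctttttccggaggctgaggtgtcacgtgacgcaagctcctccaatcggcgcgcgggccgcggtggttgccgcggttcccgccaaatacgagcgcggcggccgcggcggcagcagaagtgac
Mcm10: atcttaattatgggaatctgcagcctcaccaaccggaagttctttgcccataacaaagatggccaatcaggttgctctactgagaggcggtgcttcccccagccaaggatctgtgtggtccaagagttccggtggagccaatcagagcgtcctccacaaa
Mcm5 holds 2 matches that overlap in 1 stretch, and Mcm6 holds 3, of which 2 overlap. Promoters were at hand for 32 of the 38 genes. In the 250 bases before the start, 9 of these 32 genes (28.1%) held an E2F match, and 583 of all 27025 genes with a promoter (2.16%) did. These were Mcm5, Mcm6, Mcm7, Cdc6, Pola1, Rfc3, Uhrf1, Dtl and Orc1. Chaf1a, Prim1, Rfc5 and Lig1, which were also called lower from 8 to 16 dpc, held none, and neither did Mcm10. A CCAAT box on either strand stood in 21 of the 32 (65.6%) and in 10133 of all (37.5%). A match of letters is a description of the sequence and was not tested against the levels.

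Within the AAV8-null group at 8 dpc, the livers fell apart. The 35 genes together gave 231 and 250 CPM in livers 1 and 2 and 115 CPM in liver 3, beside 164, 139 and 140 CPM in the NP livers. Livers 1 and 2 were thus above every other liver of the study, and liver 3 was below all NP livers. Liver 1 exceeded all NP livers for 29 of the 35 genes and liver 2 for 30, but liver 3 for 2, while across all genes tested these shares were 23.4%, 23.5% and 24.0%. For 19 genes, livers 1 and 2 were the highest of all 15 livers. The typical gene stood at 1.81 and 2.34 times its NP mean in livers 1 and 2 and at 0.814 times in liver 3 (medians over the 35 genes). Mki67, the gene of the proliferation marker Ki67, was at 43.8, 45.4 and 4.11 CPM in these livers, and Top2a, the topoisomerase of dividing cells, was at 17.0, 20.9 and 1.82 CPM. The 6 Kupffer cell markers summed to 386, 338 and 182 CPM in the same livers, bile duct markers to 24.2, 26.8 and 17.998 CPM, erythroid markers to 14.96, 16.2 and 11.96 CPM, and T or NK cell markers to 2.56, 2.501 and 2.03 CPM, each lowest in liver 3. Neutrophil markers, at 7.92, 4.76 and 11.8 CPM, and B cell markers, at 4.42, 4.11 and 4.89 CPM, were highest there. The part of these cells in the result was not tested. The hepatocyte markers did not follow this order, at 98905, 80530 and 92852 CPM. In bulk liver, fewer cells in S phase and less of each transcript per cell cannot be told apart. Liver 3 thus goes against the rest of its group, and whether its mouse was at the labelled stage of pregnancy was not tested. Counts of calls and medians that rest on this group are also given without it.

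**Figure D1:**
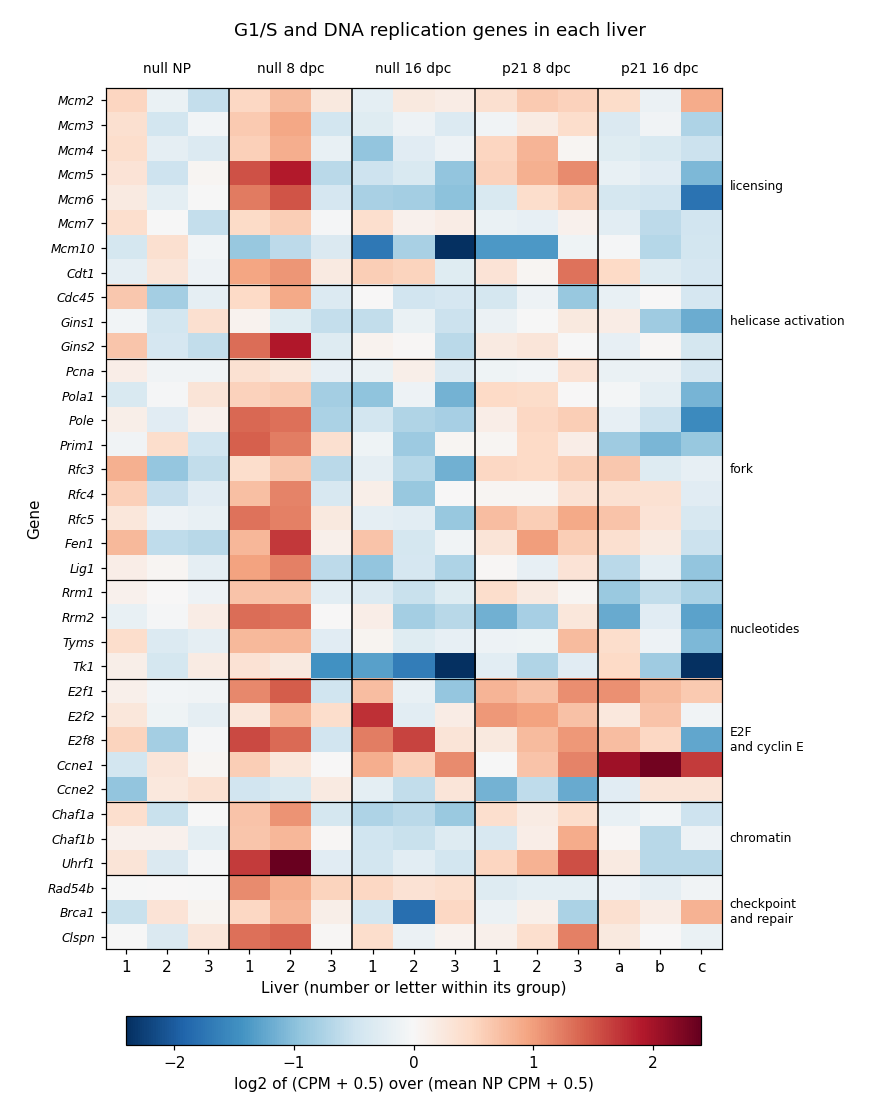
Heat map of the 35 replication genes tested (rows, ordered by role) in the 15 livers (columns, in their 5 groups), with colour giving the log2 of CPM plus 0.5 over the mean NP CPM plus 0.5, and levels past the ends of the colour bar drawn in its end colours. Livers 1 and 2 of the AAV8-null group at 8 dpc are red in most rows, and liver 3 of that group looks like the NP livers.

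**Figure D2:**
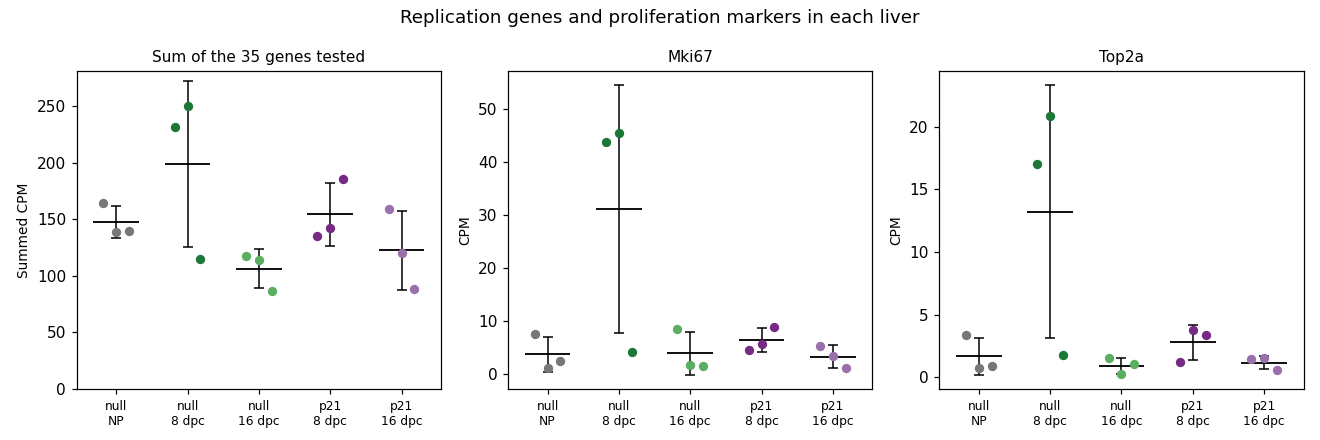
Summed CPM of the 35 genes, and CPM of Mki67 and Top2a, in each liver, with a point for each liver, a line at the mean of 3 livers and a bar for the SD. Livers 1 and 2 of the AAV8-null group at 8 dpc, at 231 and 250 summed CPM, are the highest of all 15.

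To ask whether mid-pregnancy changes these genes, AAV8-null livers at 8 dpc were compared with NP livers. Rad54b passed the filter only through the 8 dpc group, where it was high, and is left out of the next counts. Of the other 34 genes, 30 had a higher mean at 8 dpc, beside 49% of all genes, and their median log2 fold change was 0.71, beside −0.01 over all genes. Clspn, Fen1, Gins2, Mcm5, Mcm6, Prim1, Rfc5, Rrm2 and Uhrf1, 9 of the 34, had an unadjusted p under 0.05, all of them higher, beside 6.6% of all genes. None of the 35 was called, beside 0% of all genes. The DESeq2 Wald test on all livers and limma voom called 0 of them as well, beside 53 and 0 of all genes. The smallest adjusted p of the 34 was 0.394 (Prim1). Without liver 3 of the 8 dpc group, 37 of the genes passed the filter, Rad54b among them, and also Dtl, which passed only through that group. Of these 37, 34 were higher, with a median of 1.11. Mcm5 was called (log2 fold change 2.07, adjusted p = 0.0421), beside 91 of all genes. Rad54b is held in this median and the next ones. The median was 0.67 without liver 1 and 0.44 without liver 2 of that group, and 1.19 without liver 1 of the NP group, beside 0.74 over all 35 genes. Endothelial markers summed to 109 to 141 CPM at 8 dpc and 148 to 248 CPM in NP livers, stellate cell markers to 95.5 to 155 CPM and 179 to 194 CPM, and neutrophil markers to 4.76 to 11.8 CPM and 0.305 to 1.73 CPM. None of these markers was called, and their part in the result was not tested.

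Comparing the stages of pregnancy, AAV8-null livers at 16 dpc had lower levels than those at 8 dpc for 30 of the 34 genes other than Rad54b, with a median log2 fold change of −1.01, beside 0.00 over all genes. Mcm5, Mcm6, Prim1, Rfc5, Lig1 and Chaf1a, 6 of the 35, were called lower, beside 2.88% of all genes, and 0 were called higher. Calls in both directions took 5.41% of all genes. The 3 livers at 16 dpc lay below all 3 at 8 dpc for 7 of the 34 genes other than Rad54b, beside 12.9% of all genes. These were Mcm2, Mcm6, Prim1, Rfc5, Rrm1, Chaf1a and Chaf1b. The number of calls rested on single livers. It was 17 without liver 3 of the 8 dpc group, beside 1039 of all genes, where 658 were called with all livers. All 6 genes were among the 17, at log2 fold changes of −2.93 (Mcm5) to −1.85 (Rfc5). The number was 0 without liver 1 or liver 2 of that group, beside 274 and 248 of all genes. It was 0 without liver 2 of the 16 dpc group, beside 319, and 1 without its liver 1 or liver 3, beside 666 and 402. The filter was set anew each time, and 37 of the genes passed it without liver 3 of the 8 dpc group. Dtl is 1 of the 17 and passed only through that group, with 18 and 24 counts in its livers 1 and 2 and at most 7 in any other liver. The direction of the median did not turn, at −1.34 without liver 3 and −0.96 and −0.75 without livers 1 and 2 of the 8 dpc group. These medians hold Rad54b, and the first also holds Dtl. Markers of several cell types moved with the stage. The 6 hepatocyte markers summed to 80530 to 98905 CPM at 8 dpc, against 319143 to 439576 CPM at 16 dpc, with 2 of 6 called. Most of these sums was Alb, at 65701 to 83805 CPM against 284546 to 408470 CPM. Apoa1 and Serpina1c were also higher in all livers at 16 dpc. Ttr was lower there, at 1164 to 2198 CPM against 2249 to 2824 CPM at 8 dpc, and Fgb and Cps1 overlapped. The 6 markers of liver endothelium summed to 109 to 141 CPM, against 192 to 233 CPM, and the 6 of stellate cells to 95.5 to 155 CPM, against 186 to 254 CPM, with 1 of 6 called in each. Bile duct, erythroid, B cell and T or NK cell markers were also apart between the stages in their sums, with 0 called, and Kupffer cell and neutrophil markers overlapped. The part of these cells in the fall of the replication genes was not tested.

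For late pregnancy, AAV8-null livers at 16 dpc were compared with NP livers. The median log2 fold change was −0.39, beside −0.03 over all genes, and 25 of the 35 genes were lower. Mcm10 was the 1 gene called, and it was lower, beside 2.06% of all genes called lower and 4.91% called in either direction. The hepatocyte markers summed to 95401 to 113739 CPM in NP livers, below the 319143 to 439576 CPM at 16 dpc. The sums were also apart for neutrophil markers, at 0.305 to 1.73 CPM in NP livers against 4.33 to 22.4 CPM, for erythroid markers, at 7.80 to 14.3 CPM against 22.8 to 31.6 CPM, and for B cell markers, at 3.08 to 5.47 CPM against 5.58 to 5.97 CPM. Bile duct markers, at 19.7 to 31.4 CPM against 8.41 to 17.3 CPM, and T or NK cell markers, at 1.95 to 3.88 CPM against 0.623 to 1.34 CPM, were lower at 16 dpc. The part of these cells in the result was not tested.

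The licensing genes were led by Mcm5 and Mcm6, subunits of the helicase ring. Mcm5 was at 1.80, 0.792 and 1.40 CPM in NP livers, at 4.77, 6.37 and 0.676 CPM at 8 dpc, against 0.802, 0.916 and 0.445 CPM at 16 dpc with AAV8-null. With AAV8-p21 it was at 2.17, 2.80 and 3.50 CPM at 8 dpc, against 1.11, 1.02 and 0.364 CPM at 16 dpc. Livers 1 and 2 of the AAV8-null group at 8 dpc were the highest of all livers for Mcm5, and liver 3 lay within the range of the 16 dpc group. The fall from 8 to 16 dpc was −2.43 ± 0.66 on the log2 scale (SE, adjusted p = 0.0417). Mcm6 was at 10.7, 12.9 and 3.02 CPM at 8 dpc, against 2.23, 2.17 and 1.87 CPM at 16 dpc with AAV8-null, with NP livers at 3.47 to 4.92 CPM. These stages did not overlap for Mcm6, with a fall of −2.08 ± 0.51 (adjusted p = 0.0263). For Mcm3, Mcm4 and Mcm7, other subunits of the ring, the log2 fold changes from 8 to 16 dpc were −0.81, −1.02 and −0.14, and none was called. Mcm2 stayed between 1.61 and 5.32 CPM in all 15 livers, and Cdt1, which helps to load the ring, between 1.53 and 6.16 CPM.

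Mcm10, which binds the loaded ring as the fork starts, reached its highest level in an NP liver. It was at 20.4, 35.6 and 26.1 CPM in NP livers, at 14.3, 17.6 and 21.4 CPM at 8 dpc, against 7.93, 15.7 and 4.27 CPM at 16 dpc with AAV8-null. All 16 dpc livers lay below all NP livers, with a log2 fold change of −1.56 ± 0.43 (adjusted p = 0.0460). This call was lost on leaving out liver 2 or 3 of the NP group or liver 1 or 3 of the 16 dpc group, with adjusted p-values between 0.0972 and 0.158. It was also lost in the 12 livers that carry a replicate number, without the number as a block (adjusted p = 0.0648) and with it (adjusted p = 0.0719). In AAV8-p21 livers Mcm10 was at 10.3, 10.2 and 25.3 CPM at 8 dpc, against 16.9 to 26.8 CPM at 16 dpc, and the latter 3 livers lay above all AAV8-null livers of that stage. That difference was 1.19 ± 0.43 on the log2 scale and was not called (adjusted p = 0.382).

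Cdc6 and Orc1, the loading factors, were too scarce to test. Cdc6 had 0 to 15 counts per liver and Orc1 had 0 to 3, with 0 counts of Orc1 in 9 livers. A liver with 0 counts may still hold up to 3 by counting error, so no order among the groups can be read for Orc1.

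Among the helicase activators, Gins2 was at 2.21, 3.51 and 0.364 CPM at 8 dpc, against 0.624, 0.583 and 0.178 CPM at 16 dpc with AAV8-null. The log2 fold change of Gins2 between these stages was −2.10 ± 0.75 and did not pass (adjusted p = 0.107), and liver 3 at 8 dpc again lay within the 16 dpc range. Gins1, another subunit of GINS, had a log2 fold change of −0.21 ± 0.42 in the same comparison, and Cdc45 one of −0.98 ± 0.54.

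At the fork, 9 of 9 genes had a lower mean at 16 dpc than at 8 dpc with AAV8-null, and Prim1, Rfc5 and Lig1 were called. Prim1, the catalytic primase subunit, was at 6.11, 5.24 and 2.70 CPM at 8 dpc, against 1.78, 0.833 and 2.05 CPM at 16 dpc, so all 3 livers at 8 dpc lay above all 3 at 16 dpc. Its log2 fold change was −1.59 ± 0.40 (adjusted p = 0.0289). Rfc5, a clamp loader subunit, was at 10.1, 9.41 and 4.53 CPM at 8 dpc, against 3.21, 3.08 and 1.78 CPM at 16 dpc, a fall of −1.57 ± 0.36 that had the smallest adjusted p of the 35 genes (0.0191). Lig1, the ligase that joins Okazaki fragments, was at 5.76, 6.91 and 1.56 CPM at 8 dpc, against 1.16, 1.92 and 1.42 CPM at 16 dpc. Liver 3 at 8 dpc lay inside the 16 dpc range for Lig1, whose log2 fold change was −1.65 ± 0.46 (adjusted p = 0.0437). The exons of Rfc5 and Lig1 overlap those of Wsb2 and Zswim9 on the opposite strand.

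**Figure D3:**
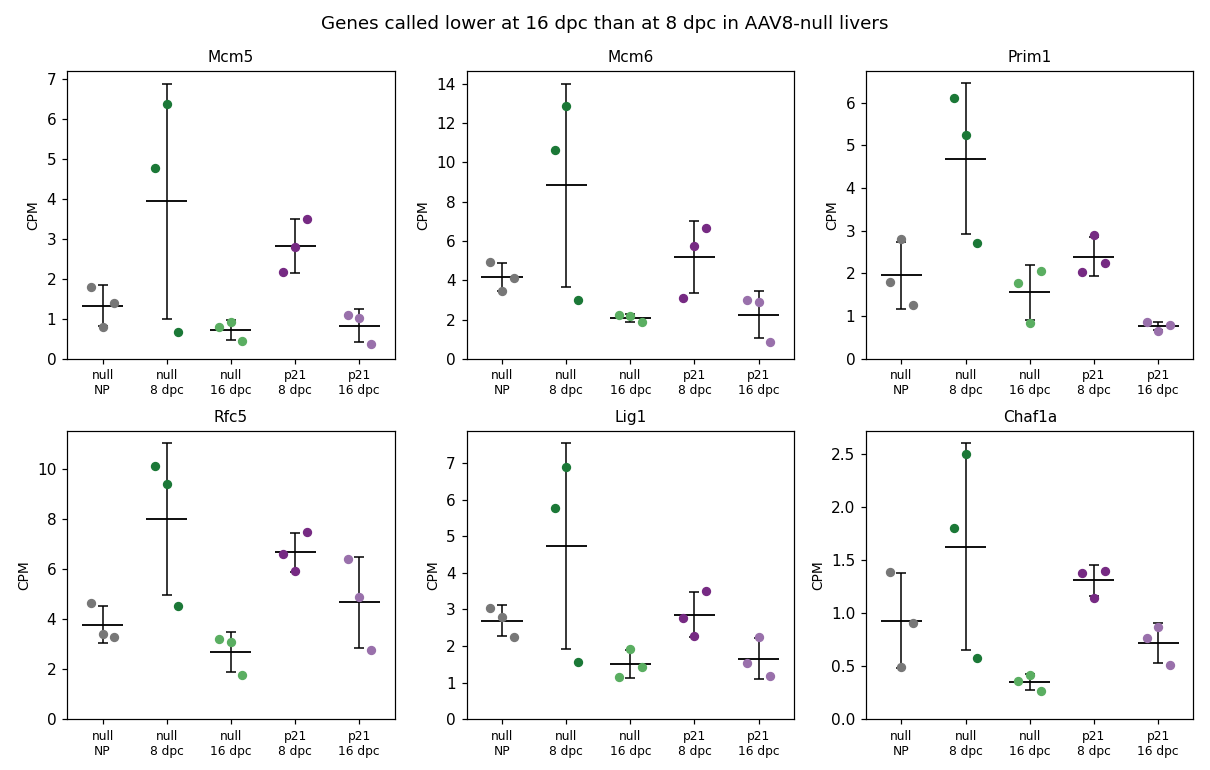
CPM of Mcm5, Mcm6, Prim1, Rfc5, Lig1 and Chaf1a in each liver, with a point for each liver, a line at the mean of 3 livers and a bar for the SD. In every panel 2 livers of the AAV8-null group at 8 dpc stand above all livers of the AAV8-null group at 16 dpc, and the remaining liver of the 8 dpc group stands lower.

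Pcna, the sliding clamp, was the most abundant of the 38 genes per length, at a mean of 6.31 CPM per kb of exon over all livers, followed by Tk1 at 2.90 and Mcm10 at 2.36 CPM per kb. Pcna stayed between 11.4 and 19.7 CPM in all 15 livers, and its log2 fold change from 8 to 16 dpc with AAV8-null was −0.27 (95% interval −0.70 to 0.16). The polymerase genes Pola1 and Pole had log2 fold changes of −1.10 ± 0.48 and −2.23 ± 0.70 there and were not called (adjusted p = 0.191 and 0.0708). Rfc3 and Rfc4, further clamp loader subunits, and Fen1, the nuclease that trims Okazaki fragments, had log2 fold changes of −1.05, −0.97 and −0.99 and did not pass.

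Of the genes for nucleotide supply, Rrm1, the large subunit of ribonucleotide reductase, was lower at the later stage with each virus. It was at 13.8, 13.9 and 6.97 CPM at 8 dpc, against 6.60, 5.67 and 6.76 CPM at 16 dpc with AAV8-null, which did not overlap. The log2 fold change was −0.86 ± 0.24 (adjusted p = 0.0464), under the size a call asks for. With AAV8-p21, Rrm1 was at 11.4, 9.82 and 8.69 CPM at 8 dpc, against 4.34, 5.45 and 4.81 CPM at 16 dpc. The latter lay below all AAV8-null livers at 16 dpc, a log2 difference of −0.38 ± 0.25 that was not called (adjusted p = 0.641). Rrm1 was the 1 gene of the 35 called lower between these groups, with a log2 fold change of −1.03 ± 0.24 (adjusted p = 0.0324), beside 1.01% of all genes. In that comparison 28 of the 35 genes had a lower mean and the median was −0.63, beside −0.02 over all genes. The median was −0.40 without liver c at 16 dpc and −0.43 without liver 3 at 8 dpc. Hepatocyte markers summed to 111237 to 133719 CPM at 8 dpc and 276135 to 308947 CPM at 16 dpc, and erythroid markers to 12.9 to 18.5 CPM and 29.6 to 56.0 CPM, and their part in the result was not tested. The Rrm1 call was lost with limma voom (adjusted p = 0.0556), which called Ccne1 instead. It was also lost without liver 1 or 2 of the AAV8-p21 group at 8 dpc or any liver at 16 dpc, and without liver 3 at 8 dpc Rrm1 and Ccne1 were called.

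Rrm2, the small subunit, which is made in S phase, was at 16.9, 16.5 and 6.45 CPM at 8 dpc, against 7.22, 3.42 and 3.83 CPM at 16 dpc with AAV8-null. Its log2 fold change of −1.46 ± 0.47 was not called (adjusted p = 0.0732). Tyms, which makes thymidylate, ranged from 2.69 to 11.2 CPM over all livers, with livers 1 and 2 of the AAV8-null group at 8 dpc at its top. Tk1, thymidine kinase, was at 23.1, 15.5 and 24.1 CPM in NP livers, at 26.7, 24.6 and 7.28 CPM at 8 dpc, against 8.20, 6.25 and 1.69 CPM at 16 dpc with AAV8-null. With AAV8-p21 it was at 17.4, 12.5 and 17.2 CPM at 8 dpc, against 29.2, 11.3 and 1.17 CPM at 16 dpc. All AAV8-null livers at 16 dpc lay below all NP livers. This log2 fold change of −1.95 ± 0.78 was the largest of the 35 genes between these groups and was not called (adjusted p = 0.163). It was called by DESeq2 on the compared groups (adjusted p = 0.00204) and by edgeR in the 12 livers that carry a replicate number, with the number as a block (adjusted p = 0.0364) or without it (adjusted p = 0.0454). The exons of Tk1 overlap those of Afmid, a gene of tryptophan breakdown, on the opposite strand. Afmid was at 62.4, 55.9 and 19.3 CPM with AAV8-null and at 120, 77.8 and 14.9 CPM with AAV8-p21 at 16 dpc, and the ratio of Tk1 to Afmid stayed between 0.0780 and 0.243 in all 15. The part of Afmid reads in the Tk1 level was not tested.

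Of the E2F and cyclin E genes, 4 of 5 had a higher mean at 16 dpc than at 8 dpc with AAV8-null, and the tested genes of every other role had a lower one. None of the differences of these 5 genes passed. Ccne1, cyclin E1, which drives CDK2 at the entry to S phase, was at 0.208, 0.670 and 0.489 CPM in NP livers, at 0.931, 0.655 and 0.468 CPM at 8 dpc, against 1.25, 0.916 and 1.60 CPM at 16 dpc with AAV8-null. With AAV8-p21 it was at 0.444, 1.03 and 1.68 CPM at 8 dpc, against 3.41, 4.29 and 2.55 CPM at 16 dpc. The 3 AAV8-p21 livers at 16 dpc were thus the highest of all 15. Against NP AAV8-null livers Ccne1 was 2.87 ± 0.50 higher on the log2 scale (adjusted p = 0.00481), the 1 gene of the 35 called higher there, beside 2.13% of all genes. None was called lower, though 23 of the 35 had a lower mean in this comparison, with a median log2 fold change of −0.34, beside −0.04 over all genes. The median was −0.15 without liver c of the AAV8-p21 group and also without liver 1 of the NP group. The Ccne1 call held on leaving out each liver of the 2 groups, with adjusted p-values between 0.00674 and 0.0293, but with a filter of 10 counts in every library the gene was not tested. Hepatocyte, stellate cell, erythroid and neutrophil markers were also above all NP livers in these 3 livers, and their part in the result was not tested. Against AAV8-null at the same stage the difference was 1.44 ± 0.46 (95% interval 0.45 to 2.43) and was not called (adjusted p = 0.3005).

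Ccne2, cyclin E2, was lowest in AAV8-p21 livers at 8 dpc, at 0.247, 0.571 and 0.210 CPM, beside 0.698, 0.774 and 1.40 CPM with AAV8-null. These groups did not overlap, but the log2 difference of −1.46 ± 0.60 was not called (adjusted p = 0.865). Its exons overlap those of Ints8 on the opposite strand. E2f1, an activator of S-phase genes, was at 3.49, 4.41 and 0.780 CPM at 8 dpc with AAV8-null, beside 1.19 to 1.45 CPM in NP livers and 2.26 to 3.36 CPM in all 6 AAV8-p21 livers. E2f8, a repressor of the family, was at 14.5, 12.3 and 3.12 CPM at 8 dpc, against 11.2, 14.9 and 5.70 CPM at 16 dpc with AAV8-null, and the stages overlapped. Its log2 fold change of 0.09 ± 0.58 (adjusted p = 0.951) turned to −0.34 without liver 3 of the 8 dpc group and to −0.23 without liver 2 of the 16 dpc group. E2f2, another activator, exceeded all NP livers in each AAV8-null liver at 8 dpc, at 0.698, 1.25 and 0.832 CPM against 0.350 to 0.693 CPM, a log2 fold change of 0.91 ± 0.64 that was not called (adjusted p = 0.976).

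Chaf1a, the large subunit of the histone chaperone CAF-1, was at 1.80, 2.50 and 0.572 CPM at 8 dpc, against 0.357, 0.417 and 0.267 CPM at 16 dpc with AAV8-null. The stages did not overlap, and the log2 fold change was −2.19 ± 0.56 (adjusted p = 0.0319). With AAV8-p21 at 16 dpc Chaf1a was at 0.767, 0.872 and 0.510 CPM, above all AAV8-null livers of that stage, a log2 difference of 1.02 ± 0.60 that was not called (adjusted p = 0.597). The exons of Chaf1a overlap those of Ubxn6 on the opposite strand. Chaf1b, its partner, had a log2 fold change of −1.33 ± 0.45 and did not pass (adjusted p = 0.0880). Uhrf1, which keeps DNA methylation through replication, was at 2.04, 3.63 and 0.156 CPM at 8 dpc, against 0.0891, 0.167 and 0.0890 CPM at 16 dpc. These were 35, 61 and 3 counts at 8 dpc and 1, 2 and 1 counts at 16 dpc, a pooled ratio of 16.03 (exact 95% interval 6.07 to 59.98, counting error only), and the gene was not called (adjusted p = 0.0506).

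Among the checkpoint and repair genes, Rad54b, a motor of homologous recombination, had 26, 20 and 16 counts in AAV8-null livers at 8 dpc and at most 9 in any other liver, so it passed the filter only through the group where it was high, and its tests against that group are a description. It was at 0.416, 0.426 and 0.420 CPM in NP livers, at 1.51, 1.19 and 0.832 CPM at 8 dpc, against 0.802, 0.667 and 0.712 CPM at 16 dpc with AAV8-null. With AAV8-p21 it was at 0.247, 0.285 and 0.280 CPM at 8 dpc, against 0.341, 0.291 and 0.364 CPM at 16 dpc. Every AAV8-null liver of a pregnant mouse lay above every NP liver, and every AAV8-p21 liver lay below every NP liver. The latter rests on 4 or 5 counts per AAV8-p21 liver beside 6 or 7 per NP liver, so few that no order of these groups can be read. The log2 difference between the viruses was −2.09 ± 0.36 at 8 dpc (adjusted p = 0.0942) and −1.11 ± 0.39 at 16 dpc (adjusted p = 0.395), and neither was called, though the first passed without liver 3 of the AAV8-null group at 8 dpc (−2.29, adjusted p = 0.0239). The exons of Rad54b overlap those of Fsbp on the same strand, and with both genes summed the difference at 8 dpc was −1.54 (adjusted p = 0.295). Brca1, which acts in recombination, was at 3.20, 4.11 and 2.39 CPM with AAV8-null at 8 dpc, against 1.88, 2.34 and 1.05 CPM with AAV8-p21. These groups did not overlap, and the log2 difference of −0.87 ± 0.54 was not called (unadjusted p = 0.133 from edgeR). Clspn, a mediator of the replication checkpoint, and Brca1 had log2 fold changes of −1.95 ± 0.90 and −0.99 ± 0.56 from 8 to 16 dpc with AAV8-null and did not pass. Dtl, which targets CDT1 for destruction, was not tested, with 0 to 24 counts per liver.

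To ask whether p21 changes these genes, AAV8-p21 and AAV8-null livers of the same stage were compared. At 8 dpc, 27 of the 34 genes other than Rad54b were lower with AAV8-p21, with a median log2 difference of −0.32, beside 0.00 over all genes. None was called, beside 0.0246% of all genes. DESeq2 on all livers and limma voom called 0 too, beside 26 and 3 of all genes. Ccne2, Cdc45, Gins2, Prim1 and Rrm2, 5 of the 34 genes other than Rad54b, had an unadjusted p under 0.05, all of them lower, beside 5.18% of all genes. Rrm2 was at 2.62, 3.48 and 7.85 CPM with AAV8-p21 (log2 difference −1.53 ± 0.46, adjusted p = 0.586). The AAV8-p21 livers at 8 dpc lay mostly between livers 1 and 2 and liver 3 of the AAV8-null group, with summed levels of 135, 142 and 186 CPM. The median difference was −0.71 without liver 3 of the AAV8-null group and −0.25 and −0.12 without its livers 1 and 2, and −0.62 without liver 3 of the AAV8-p21 group. Rad54b is held in these medians. The intervals were wide. For Mcm5 the 95% interval of the difference ran from −1.70 to 0.74, and for 30 of the 35 genes it reached past a log2 difference of 1 in size. The markers of 4 cell types were also apart between these groups. Hepatocyte markers summed to 111237 to 133719 CPM with AAV8-p21 and 80530 to 98905 CPM with AAV8-null, stellate cell markers to 172 to 235 CPM and 95.5 to 155 CPM, and bile duct markers to 36.0 to 53.3 CPM and 17.998 to 26.8 CPM. Neutrophil markers were lower with AAV8-p21, at 1.88 to 2.96 CPM against 4.76 to 11.8 CPM. None of these markers was called, and their part in the differences was not tested.

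At 16 dpc the differences between the viruses went both ways, with 19 of the 35 genes higher and 16 lower with AAV8-p21 and a median log2 difference of 0.10, beside 0.00 over all genes. None was called, beside 0.0739% of all genes. DESeq2 on all livers and limma voom called 0 of the 35, beside 98 and 13 of all genes. For 6 of them the unadjusted p was under 0.05, beside 9.77% of all genes. These were Ccne1, Mcm10 and Rfc5, which were higher, and Mcm7, Prim1 and Rad54b, which were lower. Prim1 was at 0.852, 0.654 and 0.801 CPM with AAV8-p21 (log2 difference −1.01 ± 0.45, adjusted p = 0.501), and Mcm7 was at 7.07, 5.31 and 6.04 CPM against 11.4, 9.08 and 9.61 CPM (−0.71 ± 0.26, adjusted p = 0.382). The groups did not overlap for Mcm7, whose exons overlap those of Ap4m1 and Cops6 on the opposite strand. The summed levels of the 35 genes were 159, 120 and 88.8 CPM with AAV8-p21 and 118, 114 and 86.6 CPM with AAV8-null. The median difference turned to −0.080 without liver a and −0.014 without liver b of the AAV8-p21 group, and was 0.28 without its liver c. Without livers 1 and 3 of the AAV8-null group it was 0.20 and 0.015. Hepatocyte markers summed to 276135 to 308947 CPM with AAV8-p21 and 319143 to 439576 CPM with AAV8-null, bile duct markers to 19.6 to 43.0 CPM and 8.41 to 17.3 CPM, and neutrophil markers to 2.04 to 4.22 CPM and 4.33 to 22.4 CPM. T or NK cell markers were apart as well, and none was called. Their part in the differences was not tested.

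**Figure D4:**
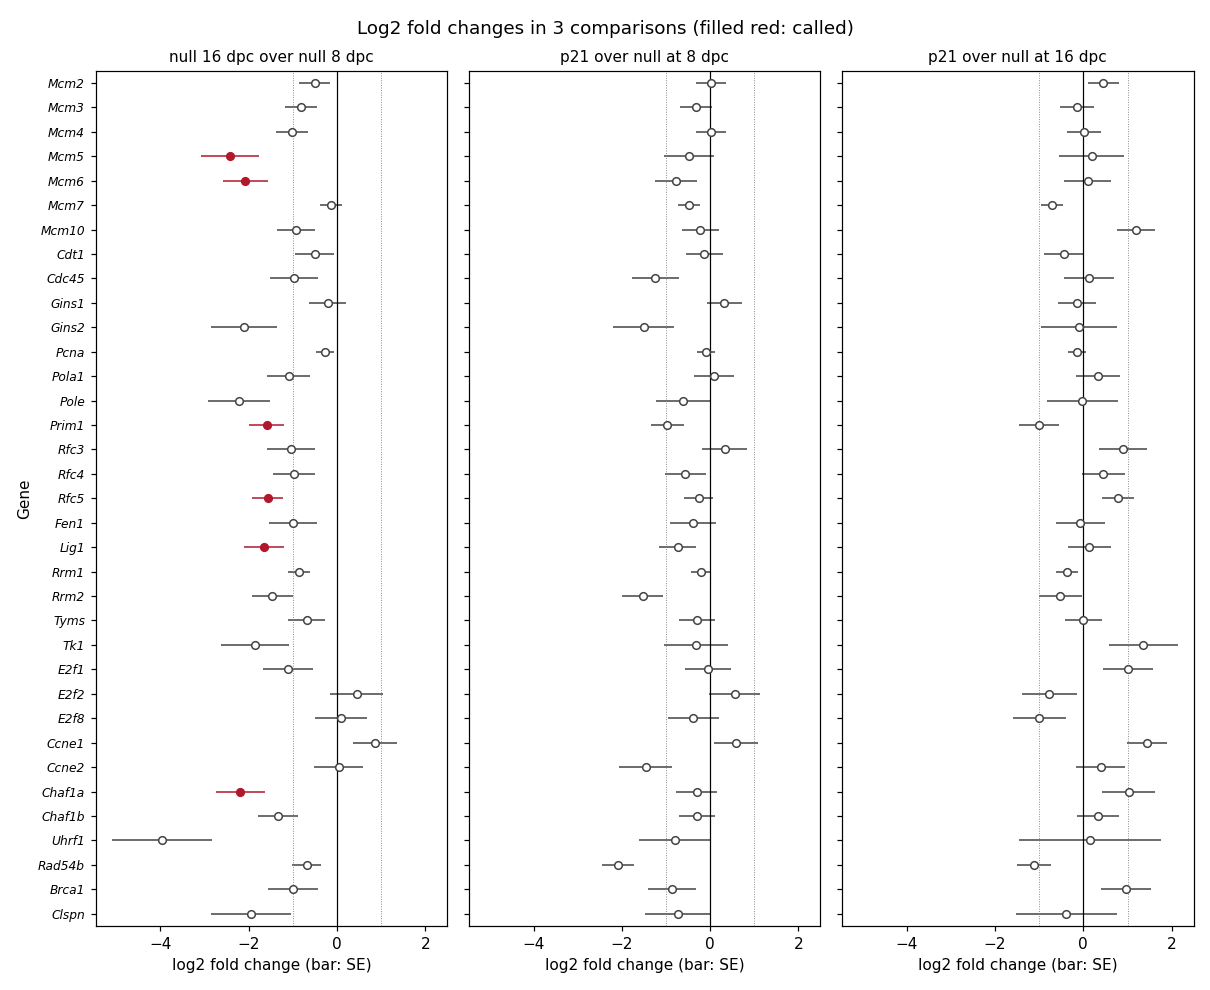
Log2 fold changes of the 35 replication genes with their SE, for AAV8-null at 16 dpc over 8 dpc (left), AAV8-p21 over AAV8-null at 8 dpc (middle) and at 16 dpc (right), where filled red points are called and the dotted lines mark −1 and 1. The left panel holds 6 called genes, all lower, and the others hold 0.

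**Figure D5:**
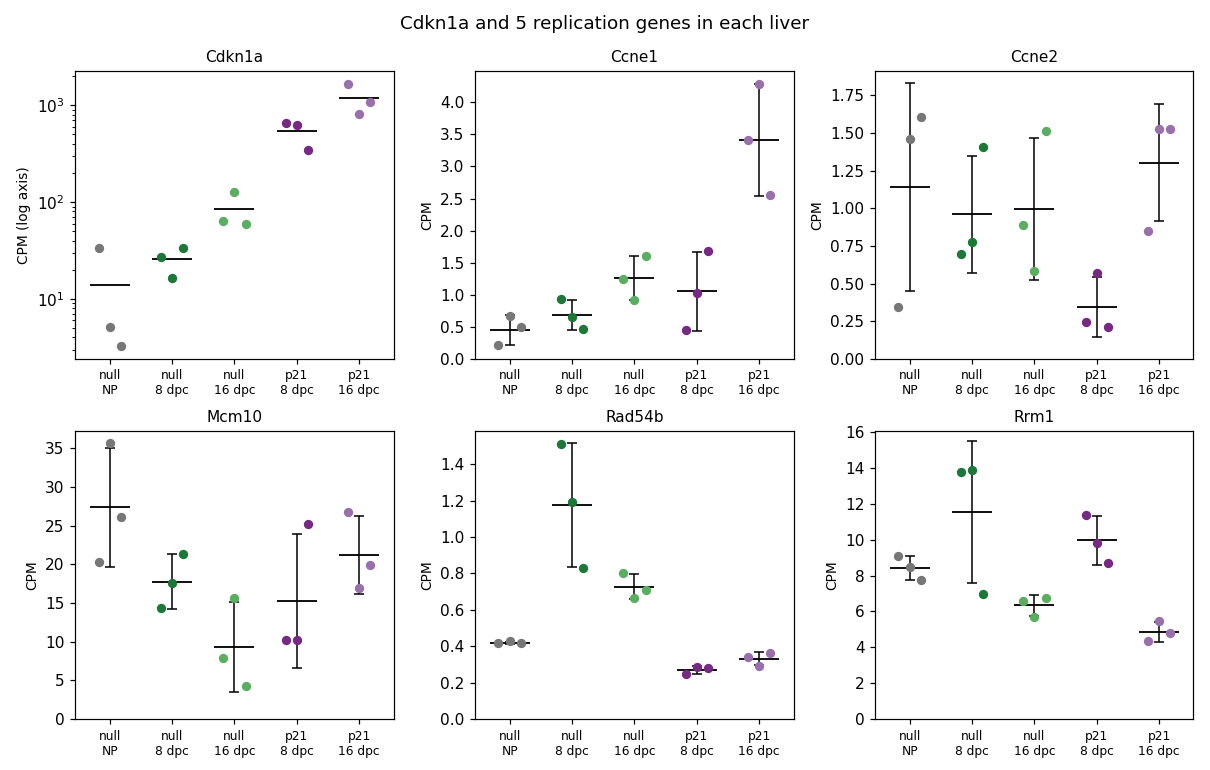
CPM of Cdkn1a (log axis, line at the mean) and of Ccne1, Ccne2, Mcm10, Rad54b and Rrm1 (linear axes, line at the mean, bar for the SD) in each liver of the 5 groups. Ccne1 is highest in the 3 AAV8-p21 livers at 16 dpc, and Rad54b is higher in all 6 AAV8-null livers of pregnant mice than in the 9 other livers.

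Whether the difference between the viruses changed with the stage was tested as an interaction. None of the 35 genes was called, beside 0% of all genes, and DESeq2 and limma voom called 0 of the 35. Brca1, Ccne2 and Mcm10, 3 of the 35, had an unadjusted p under 0.05, beside 3.09% of all genes. For Mcm10 the difference grew by 1.41 ± 0.60 on the log2 scale from 8 to 16 dpc (95% interval 0.13 to 2.70), and for Ccne1 by 0.85 ± 0.68 (interval −0.60 to 2.30). Without liver 3 of the AAV8-null group at 8 dpc none was called, and these differences were 1.26 for Mcm10 and 1.07 for Ccne1. The median over the 35 genes, Rad54b included, was 0.61. It was 1.10 without that liver and 0.28 without liver 2 of the same group. It was 1.03 without liver c of the AAV8-p21 group at 16 dpc, 0.996 without liver 3 of that virus at 8 dpc, and 0.35 with limma voom.

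Against NP AAV8-null livers, AAV8-p21 livers at 8 dpc had a higher mean for 27 of the 35 genes, with a median log2 fold change of 0.33, beside −0.01 over all genes. The median was 0.55 without liver 1 of the NP group. Bile duct markers summed to 36.0 to 53.3 CPM with AAV8-p21 and 19.7 to 31.4 CPM in NP livers, and neutrophil markers to 1.88 to 2.96 CPM and 0.305 to 1.73 CPM, and their part in the result was not tested. None was called, beside 0.0411% of all genes. DESeq2 on all livers and limma voom called 0, beside 92 and 2 of all genes. Ccne1, Ccne2, E2f2 and Rfc5, 4 of the 35, had an unadjusted p under 0.05, beside 8.43% of all genes, and Ccne2 was the lower one (−1.70 ± 0.60, adjusted p = 0.435). Rfc5 was at 6.61, 5.94 and 7.49 CPM, above the 3.29 to 4.64 CPM of all NP livers (0.82 ± 0.34, adjusted p = 0.540).

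A further 70 replication genes were listed for comparison, of which 64 were tested. From 8 to 16 dpc with AAV8-null, 52 of the 64 were lower, with a median log2 fold change of −0.56, and Dut, Gmnn, Prim2, Rad54l, Skp2 and Slbp, 6 of the 64, were called lower, beside 2.88% of all genes. Dut, which clears dUTP, had a log2 fold change of −1.47 ± 0.38 (adjusted p = 0.0349), and Slbp, which processes histone mRNA, one of −1.02 ± 0.25 (adjusted p = 0.0259). Gmnn, the inhibitor of CDT1, was called lower at 16 dpc than at 8 dpc (−1.12 ± 0.30, adjusted p = 0.0362) and than in NP livers (−1.28 ± 0.30, adjusted p = 0.0192), where Slbp was the other of 2 genes called, beside 2.06% of all genes. The calls from 8 to 16 dpc rested on single livers. Without liver 2 of the 8 dpc group, or without liver 2 or liver 3 of the 16 dpc group, none of these 6 genes was called. Skp2 was lost on leaving out any 1 of the 6 livers (adjusted p = 0.0510 to 0.186), and Prim2 was also lost with the size factors of DESeq2 (adjusted p = 0.0502). With limma voom 1 gene of the list, Gmnn, was called. DESeq2 on the compared groups called 3, which were Dut, Rad54l and Slbp, and edgeR on the compared groups called 0. Without liver 3 of the 8 dpc group, 53 of 67 genes tested were lower with a median of −0.78. In that setting 17 were called lower, Dut, Gmnn, Prim2, Rad54l and Slbp among them, beside 1039 of all genes called in either direction. Against NP, Gmnn was lost without liver 2 or 3 of the 16 dpc group or liver 2 of the NP group, and Slbp without liver 2 or 3 of the 16 dpc group or liver 3 of the NP group. Both were lost in edgeR on the compared groups (adjusted p = 0.0813 and 0.0545). The other comparisons called 0 of the 64 in edgeR.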

How the data were processed

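Whole-liver RNA was sequenced from 15 mice. Per the labels and the study's methods, stranded mRNA libraries were made, and the authors used cutadapt 1.14 for trimming, HISAT2 2.1.0 for alignment to mm10 and HTSeq 0.12.4 to count unique reads on the coding genes of GENCODE M25. The deposited values are these raw counts per gene, without normalization by the authors. The strand setting of the counting is not given in the sources used here, so genes with overlapping exons are uncertain. Of the 38 genes, 11 overlap another coding gene, 10 on the opposite strand and 1 on the same strand (GENCODE M21, GRCm38). The laser capture samples were not used here.

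The 38 genes and all lists were chosen with earlier results of these data known. Every one of the 38 is accounted for. Those called in at least 1 comparison, or with groups that do not overlap between 8 dpc and NP with AAV8-null or between the viruses at 1 stage, were to be given with single-liver values. Genes outside this rule that are given by liver (Gins2, Rrm2, Uhrf1, E2f1, E2f8 and Tk1) were chosen after their values were seen.

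Counts were tested in edgeR 4.0.16 (R 4.3.3) by quasi-likelihood, with TMM factors and filterByExpr (minimum count 10). One model held the 5 groups in all 15 livers, with 10 residual degrees of freedom, and p-values were adjusted after Benjamini-Hochberg over 12172 genes. All adjusted p-values in the text come from this test unless another tool is named. The study used the Wald test of DESeq2, which was run as an alternative (version 1.42.0). SE values come from the fold change and the F statistic. The mice of a group are separate animals. Comparisons that share a group are not independent. Exact permutation tests of 3 livers against 3, whose smallest two-sided p is 0.1, are not reported.

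The settings tried instead were the size factors of DESeq2, no filter, 10 counts in every library, DESeq2 on all livers or the compared groups, limma voom (limma 3.58.1), edgeR on the compared groups, the replicate number as a block, the adjusted p alone and each liver left out. On simulated counts with 200 changed genes, modelled on 16 dpc against 8 dpc with AAV8-null, edgeR recovered 85.5% with 5 other calls among 12020 genes, DESeq2 88.5% with 15 among 12172 and limma voom 83.5% with 2 among 12020. The genes changed in this simulation were given a log2 change of 2 in size. The median of the 34 replication genes other than Rad54b was −1.01 between these groups. Recovery was not computed for smaller changes, for genes with low counts alone or for a group split like AAV8-null at 8 dpc. The shares recovered thus do not give the power for the replication genes that were not called. Promoters are RefSeq sequences on GRCm38.p6. Figures were drawn with matplotlib 3.10.9.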

Additional observations from a re-analysis of the deposited data

How the results depend on the processing

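Calls over all genes are given in brackets. For 16 dpc against 8 dpc with AAV8-null, 6 of the replication genes were called (658). The 6 became 3 with 10 counts in every library (468), 10 with DESeq2 on the compared groups (850) and 2 with limma voom (490). They became 0 with edgeR on the compared groups (316) and 0 to 17 on leaving out 1 liver (248 to 1039). All calls were lower in each setting. For 16 dpc with AAV8-null against NP, 1 was called (598). This became 2 with DESeq2 (738) and 0 with edgeR (382) on the compared groups, and 0 to 1 on leaving out 1 liver (338 to 604). For AAV8-p21 at 16 dpc against 8 dpc, 1 was called (334). This became 3 with DESeq2 on all livers (549), 5 with DESeq2 (685) and 2 with edgeR (364) on the compared groups. It became 0 to 2 on leaving out 1 liver (154 to 393). With limma voom the 1 call was Ccne1 and not Rrm1 (305). For AAV8-p21 at 16 dpc against NP, the 1 call (374) became 0 with 10 counts in every library (285), since Ccne1 was then not tested. It stayed 1 on leaving out each liver (192 to 403). The 0 calls at 8 dpc against NP (0) and between the viruses at 8 dpc (3) became 1 without liver 3 of the AAV8-null group (91 and 38). These were Mcm5 and Rad54b in turn, of which Rad54b passed the filter only through that group. The cause of the other changes was not tested. For the single genes and comparisons named in the text, 1070 alternative values were computed, of which 923 kept their direction and their side of the threshold, 113 no longer passed it, 29 newly passed it and 5 turned direction. Those 5 were of differences that were not called. From 8 to 16 dpc with AAV8-null, E2f8 ran from −0.34 to 0.46 on leaving out 1 liver, turning without liver 3 at 8 dpc and without liver 2 at 16 dpc (−0.23), and Gins1 from −0.40 to 0.022, turning without liver 1 at 8 dpc. Between the viruses at 8 dpc, Mcm5 turned to 0.035 with limma voom and ran from −0.98 to 0.052 on leaving out 1 liver, turning without liver 2 of the AAV8-null group. The deviations of same-numbered livers from their group means had a mean correlation of 0.00588 over 18 pairs (−0.576 to 0.472). It was −0.00701 over 36 pairs with different numbers (−0.551 to 0.614). Whether the numbers pair the mice cannot be told from this, since the correlations scatter widely in both sets. With the replicate number as a block in the 12 livers that carry one, 16 dpc against 8 dpc with AAV8-null had 2 calls, beside 5 in the same livers without the block, and 16 dpc against NP had 1 in each, which was Tk1 in both and not Mcm10. Among the further replication genes, 16 dpc against 8 dpc had 3 calls with the block and 4 without it, Rad54l being lost. No other count of calls in these 2 lists changed with the block. Low counts limit Clspn, Uhrf1, Rad54b, Cdc6, Dtl and Orc1 most.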
